A study of Mus musculus with 24 samples.

Results

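The transcription factor gene *Tfap2b* lies on mouse chromosome 1, and 9 genes on both sides of it were examined in brains of *Tfap2b*-/- embryos. These were *Adhfe1*, *Vxn*, *Mcmdc2*, *Snhg6* and *Terf1* at lower coordinates and *Mcm3*, *Paqr8*, *Tram2* and *Tmem14a* at higher ones, 9 of the 54446 genes counted. They were chosen for their position, and with their levels in the mutants and controls of these same libraries already known, so they were selected on their CPM in the genotype contrast. Their differences between genotypes, and how these differ between regions, are therefore given as a description. The number of them called in a genotype contrast is stated beside that of all genes, and nothing is read from it. For these genes a test is given only for the difference between brain regions in controls.

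RNA was sequenced from the secondary prosencephalon (SP, the future forebrain hemispheres and hypothalamus) and from the diencephalon, midbrain and hindbrain (DMH) of 12 embryos at stage E14.5. There were 3 *Tfap2b*+/+ control and 3 *Tfap2b*-/- mutant embryos of each sex, all from matings of *Tfap2b*+/- mice, so that the controls were wild-type littermates. The mutant allele carries a PGK-neo cassette within an exon of *Tfap2b* and is carried by every cell of the embryo. The strain in which it was made, the number of backcrosses and the litter of each embryo are not given in the sources used here. Female mutant 3 (mut3) was excluded from comparisons of genotypes, as the study did. This leaves 6 controls and 5 mutants in each region. Its values stand last among the female mutants where libraries are listed, and the mutants' ranges, medians, means and fold changes for single genes leave it out.

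DNA that flanks a targeted allele is inherited together with it, and matings that select for the allele also select for its neighbours. Genes close to the target can therefore carry sequence of another strain in mutants and not in their wild-type littermates, and such genes are known to differ in level for that reason alone. A transcription factor can equally act on genes that happen to lie near it. AP-2β, the product of *Tfap2b*, binds DNA as a dimer and guides development of midbrain, hindbrain, neural crest and kidney. In this design the effect of linked DNA and that of the loss of *Tfap2b* cannot be told apart for a gene that differs between genotypes.

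Fragments on genes numbered 24.7 to 66.8 M per library. A floor of 3 counts was 0.0455 to 0.123 CPM (TMM-normalized counts per 1 M fragments). The floor covers counting error only. The summed level of 7 forebrain markers was 1210 to 1752 CPM in SP and 93.0 to 282 CPM in DMH, and that of 6 midbrain and hindbrain markers was 197 to 342 CPM in DMH and 1.07 to 5.44 CPM in SP. In 4 DMH libraries, those of female control 1, female mutants 1 and 2 and male mutant 2, the summed level of 14 caudal *Hox* genes was 0.0378 to 11.5 CPM, against a median of 411 CPM over the 12 DMH libraries. The DMH library of female mut3 had 696 CPM of skeletal muscle transcripts, against a median of 8.37 CPM. SP and DMH of the embryo with the label female control 2 both carried Y-linked transcripts (122 CPM in DMH and 133 CPM in SP) and almost no *Xist*. Its label was kept, so this embryo counts as a female in the sex covariate and in the comparisons within females. No fit used the other coding. Of the tissues next to the brain, 5 choroid plexus genes, all 5 above the floor, summed to 275 to 509 CPM in SP controls and 29.3 to 372 CPM in SP mutants, and to 364 to 653 CPM in DMH controls and 84.2 to 638 CPM in DMH mutants. For 6 genes of meninges and mesenchyme, all 6 above the floor, the sums were 437 to 618 and 133 to 662 CPM in SP and 768 to 1149 and 688 to 1017 CPM in DMH. The lowest SP library in both lists was male mutant 3. Fewer cells of a type and less RNA per cell cannot be told apart in such bulk samples.

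Coordinates are those of GRCm38. *Adhfe1* (ENSMUSG00000025911.14, chromosome 1, 9547948 to 9580673), *Vxn* (ENSMUSG00000067879.3, 9601199 to 9627143), *Mcmdc2* (ENSMUSG00000046101.16, 9908638 to 9942085) and *Snhg6* (ENSMUSG00000098234.7, 9941959 to 9944118) start 9.66, 9.61, 9.30 and 9.26 Mb below the start of *Tfap2b*. *Terf1* (ENSMUSG00000025925.14, 15805646 to 15844052) starts 3.40 Mb below it. On the other side *Mcm3* (ENSMUSG00000041859.10, 20802968 to 20820312), *Paqr8* (ENSMUSG00000025931.15, 20890606 to 20939650), *Tram2* (ENSMUSG00000041779.5, 20996299 to 21079229) and *Tmem14a* (ENSMUSG00000025933.15, 21218575 to 21230167) start 1.61 to 2.01 Mb above it. *Tfap2b* itself lies at 19208914 to 19238576. *Snhg6*, *Mcm3* and *Tram2* are on the reverse strand and the others on the forward strand. *Mcmdc2* and *Snhg6* share 127 bases at their ends on opposite strands, and the transcript 2610203C22Rik overlaps *Adhfe1* and *Vxn* on the opposite strand at 0.0351 to 0.456 CPM. On the same strand as *Adhfe1*, the processed pseudogene *Gm6161* shares 1102 bases with it and was counted at up to 0.204 CPM. Counts of the strand that dUTP libraries read were used.

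AP-2 proteins recognise a palindrome in which GCC and GGC are separated by 3 bases of any kind, so that a match on one strand is a match on the other. RefSeq promoters (GRCm38.p6, from 250 bases before to 50 bases after a transcript's start) were at hand for 4 of the 9 genes, *Mcm3*, *Paqr8*, *Tram2* and *Tmem14a*. Of their 5 promoters 2 held the motif, while 5450 of all 32851 promoters in the table (16.6%) held it. The fixed bases of the motif are all G or C. GC content was 64.3% (*Paqr8*) and 79.7% (*Tram2*) in the 2 promoters with a match. It was 47.7% to 49.0% in those of these genes without a match, and the median in the table was 52.7%. The part of GC content in the matches was not tested. These 2 promoters are shown because they are the ones with a match, which stands in capitals. The first belongs to *Paqr8* (chr1:20890298-20890597, forward strand), with 1 match that begins 38 bases after the start. The second belongs to *Tram2* (chr1:21079176-21079475, reverse strand), with 3 matches that begin 225, 169 and 67 bases before the start.
Paqr8: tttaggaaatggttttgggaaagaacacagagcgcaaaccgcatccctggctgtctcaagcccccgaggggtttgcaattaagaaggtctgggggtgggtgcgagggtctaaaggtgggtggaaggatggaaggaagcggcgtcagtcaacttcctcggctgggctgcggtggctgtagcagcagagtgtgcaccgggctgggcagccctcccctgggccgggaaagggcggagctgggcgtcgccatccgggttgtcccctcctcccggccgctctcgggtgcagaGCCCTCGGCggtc
Tram2: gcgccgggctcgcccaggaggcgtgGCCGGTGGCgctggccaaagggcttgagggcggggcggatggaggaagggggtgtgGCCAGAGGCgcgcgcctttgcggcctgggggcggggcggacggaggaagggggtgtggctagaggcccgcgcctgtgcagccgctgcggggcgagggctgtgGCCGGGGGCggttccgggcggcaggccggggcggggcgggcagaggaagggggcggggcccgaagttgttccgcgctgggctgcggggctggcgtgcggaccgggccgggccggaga
The promoter of *Tfap2b* in the same table, the promoters of *Mcm3* and *Tmem14a* and the second promoter of *Paqr8* held none within these 300 bases. A match is a stretch of letters and not a measured binding site.

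*Tfap2b* was the check of the labels. In DMH it was at 384, 281 and 400 CPM in female controls and at 435, 435 and 331 CPM in male controls. In the mutants it was at 53.7, 50.4 and 51.7 CPM in females and at 54.1, 56.6 and 51.1 CPM in males, or 14.1% of the controls' mean. All DMH mutants were far below all DMH controls. In SP it was at 3.48 to 4.19 CPM in controls (median 3.93) and at 2.75 to 4.72 CPM in mutants (median 3.88), and the genotypes overlapped. Differences between genotypes in SP were thus measured where *Tfap2b* RNA was low in controls and its range was alike in mutants. The mutants carry the disrupted gene in both regions, and the level of AP-2β protein was not measured.

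**Figure D1:**
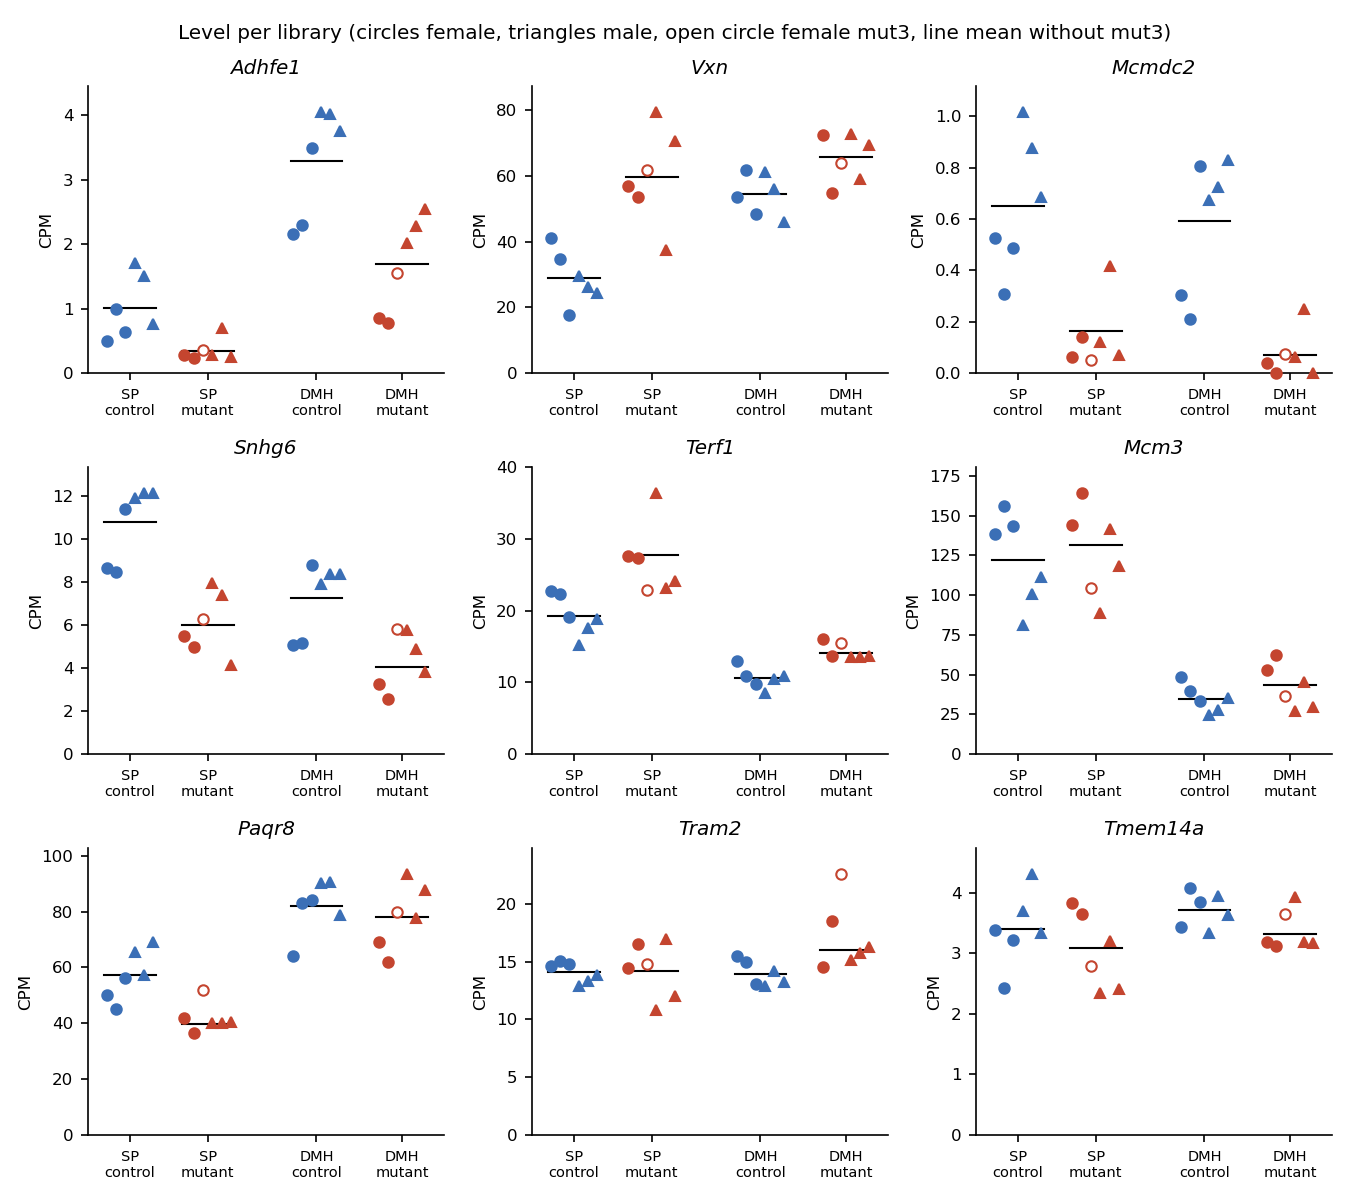
Level of the 9 genes in each of the 24 libraries, in CPM on a linear axis that starts at 0, by region and genotype. Circles are females, triangles males, the open circle is female mut3 and lines are means without it. The means of *Adhfe1*, *Mcmdc2* and *Snhg6* are lower and that of *Terf1* is higher in mutants of both regions, the mean of *Vxn* is higher in SP mutants (59.6 CPM) than in SP controls (28.9 CPM), with an overlap of single libraries, and *Mcm3*, *Tram2* and *Tmem14a* overlap in both regions.

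*Adhfe1* encodes a mitochondrial hydroxyacid-oxoacid transhydrogenase of the iron-dependent alcohol dehydrogenase family. In SP it was at 0.492, 0.989 and 0.639 CPM in female controls and at 0.284, 0.237 and 0.355 CPM in female mutants. Male SP controls had 1.70, 1.51 and 0.763 CPM and male SP mutants 0.278, 0.703 and 0.244 CPM. Mutants were lower in each sex, and only male mutant 2 reached into the range of the controls. In DMH female controls had 2.15, 2.30 and 3.49 CPM and female mutants 0.860, 0.772 and 1.55 CPM. Male DMH controls had 4.05, 4.02 and 3.76 CPM and male DMH mutants 2.03, 2.28 and 2.54 CPM. Within each sex all DMH mutants were below the controls, although male mutants overlapped female controls. This rests on the label of female control 2, which carried Y-linked transcripts and whose 2.30 CPM lay below the 2.54 CPM of male mutant 3. The log2 fold change, mutant over control with sex as a covariate, was −1.54 (SE 0.33) in SP and −1.12 (SE 0.18) in DMH. Within single sexes it lay between −1.69 in female DMH and −0.83 in male DMH.

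*Vxn* encodes vexin, a protein that promotes neuronal differentiation. Its SP level was 41.0, 34.8 and 17.8 CPM in female controls and 56.9, 53.4 and 62.0 CPM in female mutants. In male SP it was 29.5, 26.1 and 24.5 CPM in controls and 79.4, 37.5 and 70.6 CPM in mutants. Mutants were higher in each sex, with male mutant 2 as the lowest of them and below female control 1. Male mutants 1 and 3, the highest for *Vxn* in SP, had the lowest choroid plexus sums, at 187 and 29.3 CPM, and the part of this in the result was not tested. In DMH it was 53.7, 61.7 and 48.4 CPM in female controls and 72.6, 54.8 and 63.8 CPM in female mutants. Male DMH had 61.3, 56.0 and 45.9 CPM in controls and 72.8, 59.0 and 69.4 CPM in mutants. The groups overlapped in DMH. The log2 fold change was 1.06 (SE 0.23) in SP and 0.26 (SE 0.10) in DMH, so that the SP mutants, at 59.6 ± 16.2 CPM (SD, n = 5), had a mean that was 206% of the controls' 28.9 ± 8.15 CPM (SD, n = 6).

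*Mcmdc2* encodes a protein related to the MCM helicase that germ cells need for meiotic recombination. In SP female controls had 0.525, 0.307 and 0.485 CPM and female mutants 0.0632, 0.142 and 0.0507 CPM. Male SP controls had 1.02, 0.876 and 0.686 CPM and male SP mutants 0.119, 0.417 and 0.0697 CPM. Male mutant 2, with 16 counts, again stood above the other mutants, which had 2 to 6 counts each. In DMH female controls had 0.302, 0.212 and 0.805 CPM and female mutants 0.0409, 0 and 0.0759 CPM. Male DMH controls had 0.675, 0.724 and 0.828 CPM and male DMH mutants 0.0609, 0.249 and 0 CPM. Within each labelled sex every mutant was below every control in both regions. Set among the males, female control 2 (0.307 CPM in SP and 0.212 CPM in DMH) would lie below male mutant 2 in both. Both libraries at 0 allow up to 3 counts, which is 0.105 CPM in female mutant 2 and 0.0991 CPM in male mutant 3. The log2 fold change in SP was −1.96 (SE 0.37), and in male DMH it was −2.97 (SE 0.58). The gene did not pass the filter on low counts in DMH of both sexes together or in female DMH, where the 2 mutants had 1 count together and the 3 controls 42. That is 4.19% of the controls' level, with an exact 95% interval of 0.104% to 24.6% that covers counting error only.

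*Snhg6* is a noncoding host gene whose introns release a small nucleolar RNA, *Snord87*. SP levels were 8.63, 8.46 and 11.4 CPM in female controls and 5.47, 4.97 and 6.26 CPM in female mutants. Male SP had 11.9, 12.1 and 12.1 CPM in controls and 7.93, 7.40 and 4.15 CPM in mutants. Every SP mutant, mut3 included, was below every SP control. In DMH female controls had 5.06, 5.14 and 8.79 CPM and female mutants 3.27, 2.56 and 5.83 CPM. Male DMH had 7.89, 8.36 and 8.36 CPM in controls and 5.77, 4.86 and 3.83 CPM in mutants. Male mutant 1 and mut3 lay above both lower female controls, so the DMH groups overlapped. The log2 fold change was −0.87 (SE 0.16) in SP and −0.92 (SE 0.16) in DMH, and the mutants' mean was 55.6% and 55.9% of that of the controls.

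*Terf1* encodes TRF1, a shelterin protein that binds the double-stranded repeats of telomeres. In SP it was at 22.8, 22.4 and 19.2 CPM in female controls and at 27.6, 27.3 and 22.9 CPM in female mutants. Male SP had 15.2, 17.6 and 18.8 CPM in controls and 36.4, 23.2 and 24.1 CPM in mutants. Every mutant was above every control in SP, by the smallest margin in mut3. In DMH female controls had 12.9, 10.9 and 9.72 CPM and female mutants 16.05, 13.6 and 15.5 CPM. Male DMH had 8.45, 10.4 and 10.9 CPM in controls and 13.6, 13.6 and 13.7 CPM in mutants, and every DMH mutant was above every DMH control as well. The log2 fold change was 0.56 (SE 0.13) in SP and 0.42 (SE 0.09) in DMH. Without male SP mutant 1, the highest library, it was 0.41 in SP. That library, also the highest for *Vxn*, stood apart with 9.98% of its fragments unmapped and 7.85% mapped to several places, against at most 7.05% and 5.81% in the others. The part of this in both results was not tested, and without it the SP log2 fold change of *Vxn* was 0.92.

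*Mcm3* encodes a subunit of the MCM2-7 helicase that unwinds DNA in S phase. In SP it was at 81.5 to 156 CPM in controls (median 125) and at 88.6 to 164 CPM in mutants (median 141), and the groups overlapped. DMH levels were 24.8 to 48.2 CPM in controls (median 34.1) and 27.2 to 62.5 CPM in mutants (median 45.3). The highest DMH levels were those of female mutants 1 and 2, at 53.1 and 62.5 CPM, which are among the DMH pieces low in caudal *Hox* transcripts. Between genotypes it differed by 0.18 (SE 0.11, log2) in SP and 0.34 (SE 0.16) in DMH, and −0.07 (SE 0.15) in DMH without the 4 pieces. Without male mutant 2 the SP value was 0.09.

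*Paqr8* encodes membrane progestin receptor β, a steroid receptor of the cell surface. SP levels were 50.3, 45.2 and 56.3 CPM in female controls and 41.8, 36.5 and 52.0 CPM in female mutants. Male SP had 65.4, 57.2 and 69.1 CPM in controls and 40.001, 40.3 and 40.5 CPM in mutants. All 5 mutants compared were below all 6 controls in SP, and mut3, at 52.0 CPM, was not. In DMH it was at 64.0 to 90.8 CPM in controls (median 83.6) and at 62.0 to 93.5 CPM in mutants (median 77.6), and the groups overlapped. Mutants over controls gave a log2 fold change of −0.53 (SE 0.08) in SP and −0.11 (SE 0.08) in DMH, where it was −0.07 without female mutant 2. Within SP it was −0.38 (SE 0.09) in females and −0.66 (SE 0.11) in males.

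*Tram2*, which acts at the translocon of the endoplasmic reticulum and in collagen synthesis, and *Tmem14a*, a small membrane protein, had the smallest differences between genotypes in SP of both sexes together. *Tram2* was at 12.9 to 15.1 CPM in SP controls and 10.8 to 16.96 CPM in SP mutants, with a log2 fold change of 0.03 (SE 0.10). In DMH it was at 12.9 to 15.5 CPM in controls and 14.53 to 18.5 CPM in mutants, with a log2 fold change of 0.20 (SE 0.07). *Tmem14a* was at 2.42 to 4.31 CPM in SP controls and 2.34 to 3.82 CPM in SP mutants, with a log2 fold change of −0.12 (SE 0.17) that joins 0.30 (SE 0.16) in females and −0.50 (SE 0.21) in males. The value in females was 0.18 without female control 2. With 1 library left out in turn, SP of both sexes gave −0.22 (without female mutant 1) to −0.04 (without male mutant 3) for *Tmem14a* and −0.07 (without male mutant 2) to 0.09 (without male mutant 1) for *Tram2*. DMH levels were 3.34 to 4.08 CPM in controls and 3.12 to 3.93 CPM in mutants, with a log2 fold change of −0.17 (SE 0.10). All of these groups overlapped.

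A gene was called when its FDR was under 0.2 and its log2 fold change was beyond 0.5 in either direction. With edgeR's quasi-likelihood test 0 of the 9 genes, and 0.0% of all 16409 genes tested, were called in SP of both sexes. Of all genes 795 had an unadjusted p under 0.05, and DESeq2 called 23 genes in SP, 6 of them among the 9 (*Adhfe1*, *Vxn*, *Mcmdc2*, *Snhg6*, *Terf1* and *Paqr8*). In DMH 8 of the 9 genes passed the filter, and 2 of them, *Adhfe1* and *Snhg6*, were called, beside 0.0478% of all 16744 genes. Here 2542 of all genes had an unadjusted p under 0.05, and DESeq2 called 50 genes, of which 2 were among the 9. Since the genotype contrast chose these genes, nothing is read from these counts. Without the pieces low in caudal *Hox* transcripts, which leaves 5 controls and only male mutants 1 and 3, both DMH calls were lost and the log2 fold changes were −0.83 and −0.77. Both were also lost without male control 1 or 2, female mutant 1 or 2, female control 2 or male mutant 2. In each of the 4 comparisons within a sex edgeR called 0 of the 9 genes, beside 0.0181% (female SP), 0.00596% (female DMH), 0.0% (male SP) and 0.0236% (male DMH) of all genes. DESeq2 called 1, 3, 2 and 3 of them, beside 8, 77, 7 and 13 of all genes. With edgeR 428, 1492, 605 and 490 of all genes had an unadjusted p under 0.05.

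*Terf1* was the only gene with every mutant on the same side of every control in both regions, among 15973 genes tested in both (0.00626%). In SP 3 of the 9 genes did not overlap between genotypes, *Terf1* above and *Snhg6* and *Paqr8* below the controls, beside 0.451% of all genes. In DMH this held for *Terf1* alone among the 9, beside 0.173% of all genes. The result for *Terf1* in both regions was the same with mut3 included and with unstranded counts, which draw on the same embryos. Since the 9 genes were chosen with these levels known, this describes the libraries and nothing is read from it.

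**Figure D2:**
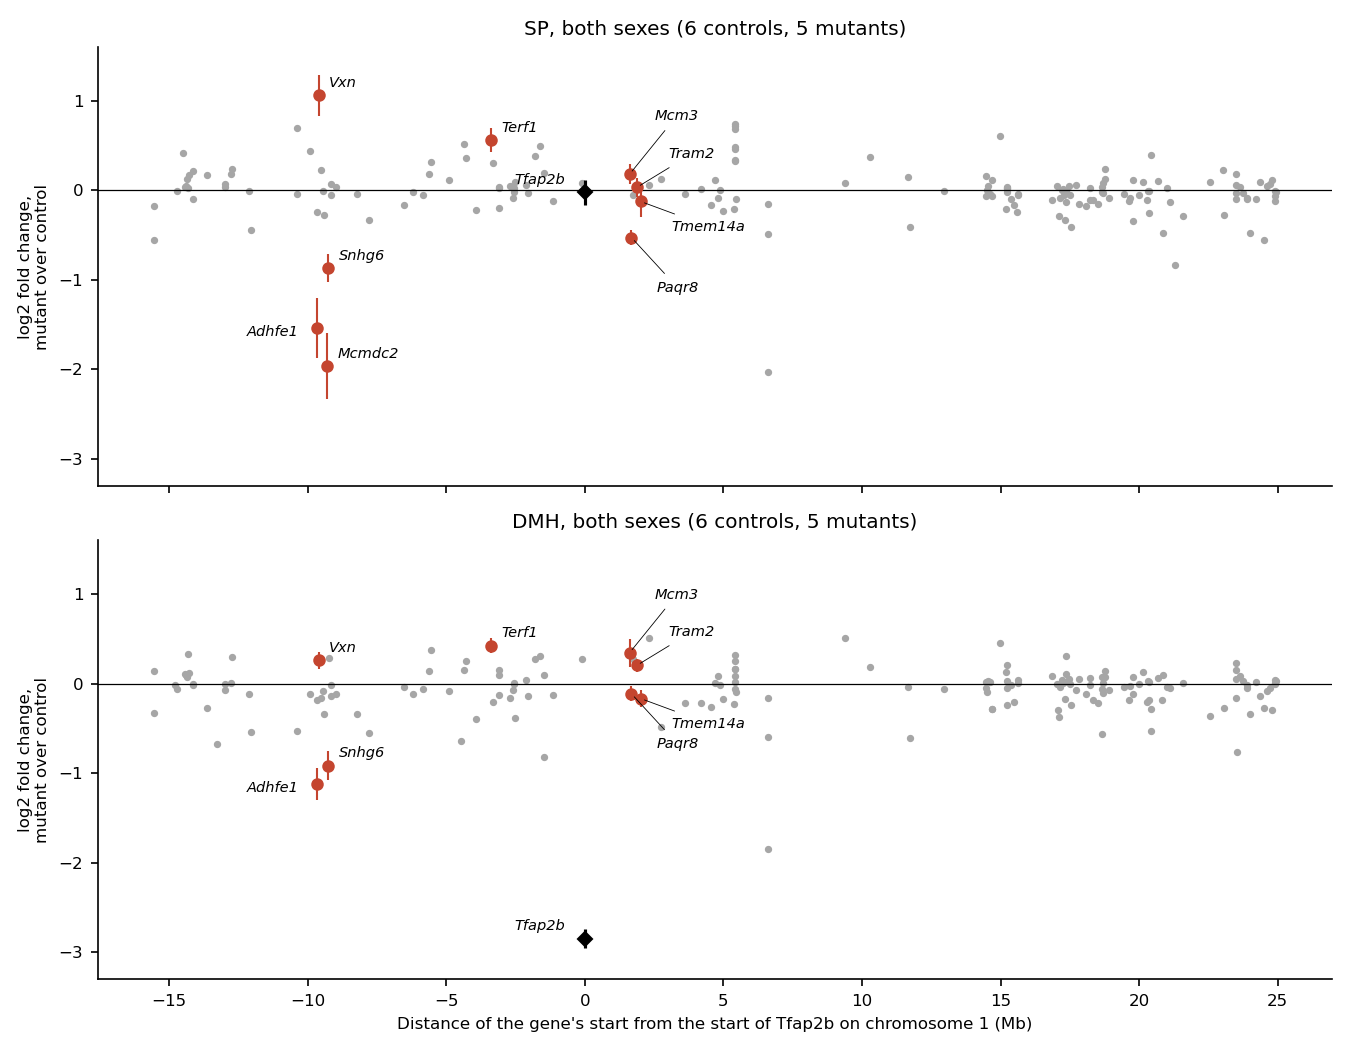
Log2 fold change, mutant over control, against the distance of a gene's start from the start of *Tfap2b* (Mb), for genes tested in SP (top) and DMH (bottom). Red points are the 9 genes and the black diamond is *Tfap2b*, both with SE bars, and grey points are all other genes in the window. In SP *Mcmdc2* is lowest of the 9 at −1.96 while *Tfap2b* is at −0.02, and in DMH *Tfap2b* is at −2.85.

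The 9 genes are not all the tested genes of this stretch. Among the others nearest to *Tfap2b* are *Rbm6-ps1*, *Pi15*, *Crispld1*, *Gm28756* and *Tfap2d* below and *Gm7658*, *Kcnq5*, *Rims1* and *Ogfrl1* above. These overlapped between genotypes in both regions and none was called, as was so for nearly all genes. Only 0.451% of all genes in SP and 0.173% in DMH did not overlap. Log2 fold changes of the named neighbours ran from −0.12 (*Gm28756*, SE 0.13) to 0.49 (*Pi15*, SE 0.32) in SP. In DMH they ran from −0.49 (*Kcnq5*, SE 0.17) to 0.51 (*Gm7658*, SE 0.33). *Tfap2d*, a paralog that starts 0.106 Mb from *Tfap2b*, had a log2 fold change of 0.09 (SE 0.16) in SP and 0.28 (SE 0.15) in DMH. *Cops5* and *Cspp1*, which start next to *Snhg6* and were named after their values were seen, had −0.05 (SE 0.06) and 0.07 (SE 0.18) in SP. Without the 9 genes and *Tfap2b*, the median absolute log2 fold change in SP was 0.0879 over 30 genes within 5 Mb, 0.237 over 28 genes at 5 to 10 Mb and 0.0910 over 75 genes at 10 to 20 Mb, against 0.0849 over 15402 genes of the other chromosomes. In DMH it was 0.166 over 32 genes, 0.162 over 29 genes and 0.0763 over 76 genes, against 0.0955 over 15726 genes. The median was thus higher than on other chromosomes at 5 to 10 Mb in both regions and within 5 Mb in DMH, and close to it within 5 Mb in SP and at 10 to 20 Mb.

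The difference of the genotype effect between DMH and SP was fitted over the 22 libraries of 11 embryos, with the embryo as a block. All 9 genes passed the filter and 0 were called by edgeR, beside 0.00573% of all 17465 genes, which is *Tfap2b* alone (DMH effect minus SP effect −2.81, SE 0.14, edgeR adjusted p = 2.87e-07). Of all genes 785 had an unadjusted p under 0.05, and DESeq2 called 3 of all genes and 1 of the 9, *Vxn*. The 9 genes were chosen on the effects that this difference compares, so their values and intervals describe these libraries and are not a test. The effect on *Vxn* was smaller in DMH than in SP by −0.81 on the log2 scale (95% interval −1.21 to −0.41). That of *Paqr8* differed by 0.40 (0.15 to 0.65). For *Snhg6* the difference was −0.04 (−0.34 to 0.25) and for *Terf1* it was −0.13 (−0.42 to 0.17). For *Adhfe1* the difference was 0.41 (−0.41 to 1.22) and for *Mcmdc2* −1.14 (−2.44 to 0.17), the widest intervals of the 9. *Mcm3* had 0.16 (−0.11 to 0.43), *Tram2* 0.17 (−0.07 to 0.42) and *Tmem14a* −0.05 (−0.51 to 0.41). Single embryos moved the smaller values. The difference was 0.03 for *Terf1* without male mutant 1, 0.04 for *Snhg6* without female mutant 2, 0.06 for *Tmem14a* without female control 2 and 0.09 for *Mcm3* without female control 3, and that of *Adhfe1* ran from 0.15 without male mutant 3 to 0.63 without male mutant 2. Without the 4 embryos whose DMH piece was low in caudal *Hox* transcripts, 5 controls and 2 male mutants remained and 0 of the 9 were called as well. The differences then were 1.41 (SE 0.57) for *Adhfe1*, −1.18 (SE 0.18) for *Vxn*, −1.31 (SE 1.01) for *Mcmdc2* and 0.16 (SE 0.20) for *Snhg6*. They were −0.41 (SE 0.20) for *Terf1*, −0.18 (SE 0.12) for *Mcm3*, 0.65 (SE 0.15) for *Paqr8*, 0.37 (SE 0.14) for *Tram2* and 0.54 (SE 0.25) for *Tmem14a*, so that *Snhg6*, *Mcm3* and *Tmem14a* had the other sign.

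**Figure D3:**
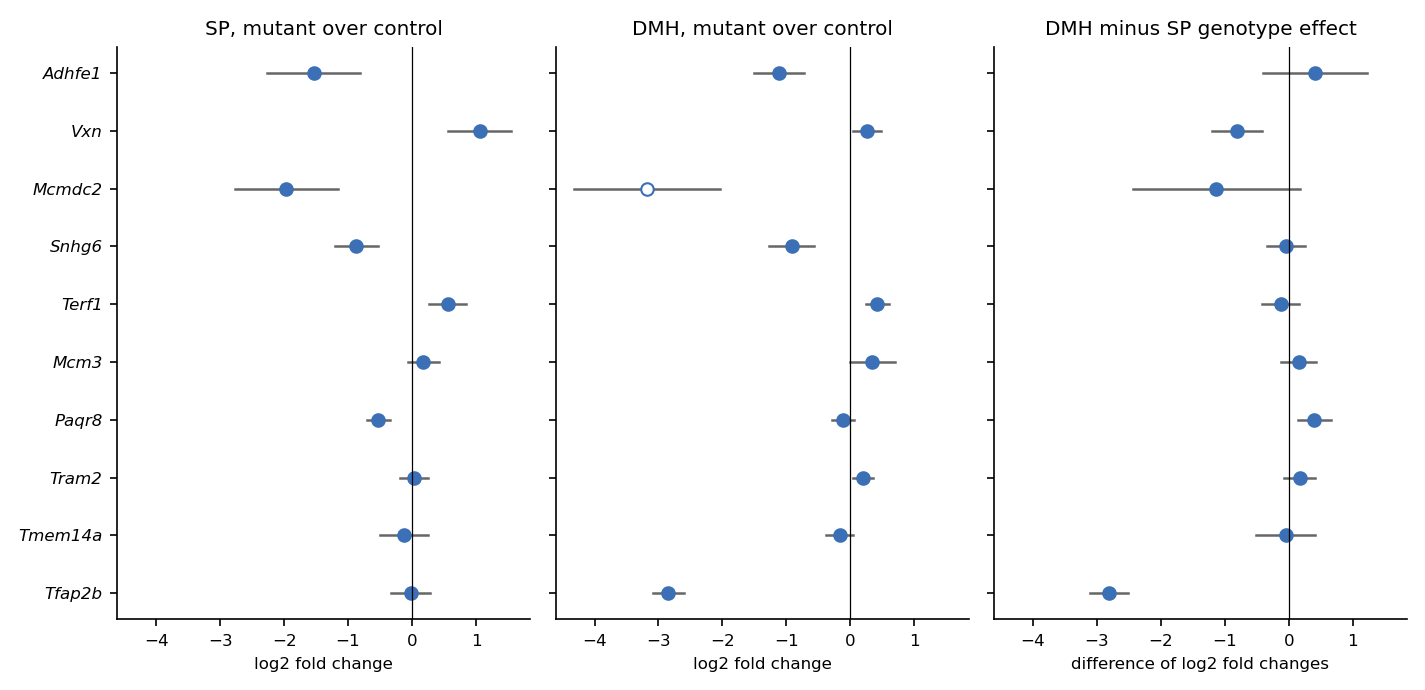
Log2 fold change, mutant over control, with 95% intervals in SP (left) and DMH (middle), and the DMH effect minus the SP effect (right), on a common horizontal axis. The open circle marks *Mcmdc2* in DMH, taken from the fit without a filter on low counts. The interval of the difference is −1.21 to −0.41 for *Vxn* and 0.15 to 0.65 for *Paqr8*, and it includes 0 for the other 7 genes.

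The same genes differed between regions within control embryos, a comparison in which no mutant took part, although the same control libraries entered the genotype contrast. Of the 9 genes 6 passed the test, beside 35.0% of all 16618 genes. *Adhfe1*, *Vxn* and *Paqr8* were higher in DMH and *Snhg6*, *Terf1* and *Mcm3* were lower. *Mcm3* had the largest difference, with 122 ± 28.8 CPM in SP and 34.8 ± 8.45 CPM in DMH (SD, n = 6 each). Its log2 fold change, DMH over SP, was −1.82 (SE 0.07, edgeR adjusted p = 7.63e-09), and it was lower in DMH in 6 of 6 embryos. *Adhfe1* had 1.02 ± 0.488 CPM in SP and 3.29 ± 0.853 CPM in DMH, or 1.74 on the log2 scale (SE 0.19, edgeR adjusted p = 5.64e-06), and was higher in DMH in 6 of 6 embryos. *Vxn* had 28.9 ± 8.15 CPM in SP and 54.5 ± 6.50 CPM in DMH (0.94, SE 0.11, edgeR adjusted p = 8.93e-05), with differences of 0.39 to 1.44 within embryos.

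*Terf1* had 19.3 ± 2.89 CPM in SP and 10.6 ± 1.48 CPM in DMH (−0.88, SE 0.06, edgeR adjusted p = 1.2e-07). *Snhg6* had 10.8 ± 1.74 and 7.27 ± 1.70 CPM (−0.59, SE 0.07, edgeR adjusted p = 1.57e-05). Both were lower in DMH in 6 of 6 embryos. *Paqr8*, at 57.3 ± 8.99 and 81.9 ± 9.86 CPM, was close to the fold threshold (0.51, SE 0.07, edgeR adjusted p = 0.000114) and was higher in DMH in 6 of 6 embryos. Its log2 fold change was below 0.5 without male control 2 (0.48), female control 2 (0.45) or female control 3 (0.499). *Mcmdc2* (−0.11, 95% interval −0.61 to 0.39), *Tram2* (−0.02, −0.15 to 0.10) and *Tmem14a* (0.13, −0.13 to 0.40, and 0.03 without female control 2) did not pass, with edgeR adjusted p = 0.674, 0.723 and 0.340. With 1 embryo left out, *Mcmdc2* ran from −0.30 (without female control 3) to 0.01 (without male control 1) and *Tram2* from −0.05 (without female control 1) to 0.01 (without female control 3). Without female control 1, the control whose DMH piece was low in caudal *Hox* transcripts, the number that passed was 6 as well.

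**Figure D4:**
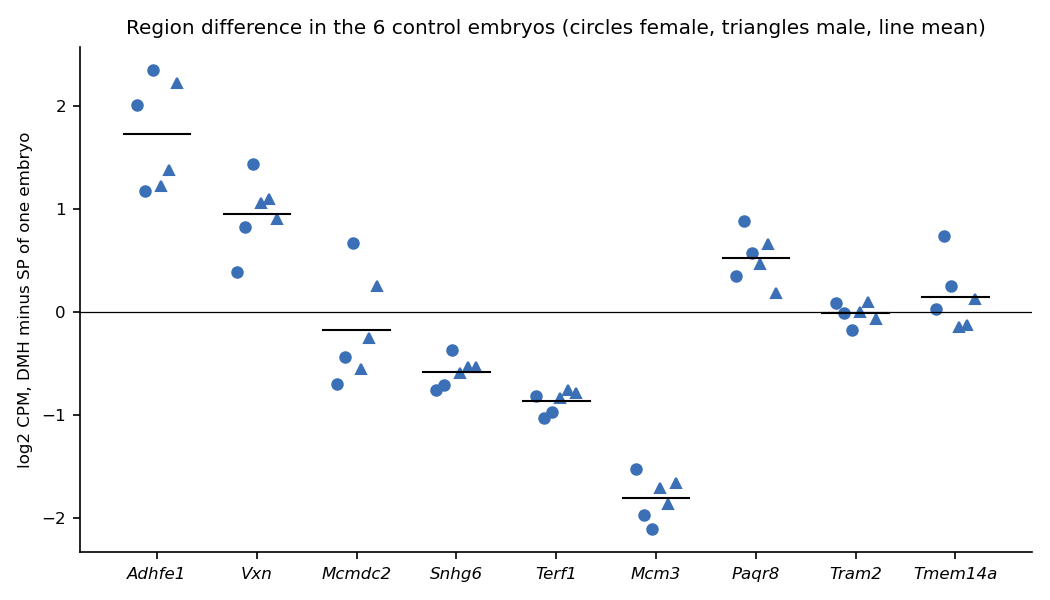
Difference in log2 CPM between DMH and SP of the same embryo for the 9 genes in the 6 control embryos, with females as circles, males as triangles and the mean as a line. *Adhfe1*, *Vxn* and *Paqr8* lie above 0 and *Snhg6*, *Terf1* and *Mcm3* below 0 in all 6 embryos.

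Ordered by level, *Vxn* was lowest in SP controls, at 28.9 CPM, and its other 3 groups lay between 54.5 and 65.7 CPM within their spread. *Terf1* was lowest in DMH controls (10.6 ± 1.48 CPM), then in DMH mutants (14.1 ± 1.09 CPM), SP controls (19.3 ± 2.89 CPM) and SP mutants (27.7 ± 5.21 CPM), and its regions did not overlap within either genotype. *Adhfe1* was lowest in SP mutants (0.349 ± 0.199 CPM), followed by SP controls, DMH mutants (1.70 ± 0.824 CPM) and DMH controls, and each of these groups overlapped the next. *Paqr8* was lowest in SP mutants (39.8 ± 1.95 CPM), then in SP controls, and its DMH groups overlapped at 78.0 ± 12.9 and 81.9 ± 9.86 CPM.

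Partners of the encoded proteins were counted for comparison. Of the 5 other subunits of the replicative helicase, *Mcm2* and *Mcm4* to *Mcm7*, 0 were called between genotypes in either region by edgeR, with log2 fold changes of 0.15 to 0.21 in SP and 0.11 to 0.32 in DMH, beside the 0.18 and 0.34 of *Mcm3*. All 5 were lower in DMH than in SP of controls, as *Mcm3* was, with −1.64 (SE 0.08) for *Mcm2* and −1.26 (SE 0.07) for *Mcm6*, which is on chromosome 1 as well, 109 Mb from *Tfap2b*. Of the other shelterin genes, *Terf2*, *Terf2ip*, *Tinf2*, *Acd*, *Pot1a* and *Pot1b*, 0 of 6 were called between genotypes, with 0.03 to 0.13 in SP and −0.02 to 0.09 in DMH. Between regions 1 was called, *Tinf2*, which was lower in DMH than in SP (−0.78, SE 0.05). Short of the fold threshold, *Pot1a* (−0.46, SE 0.04), *Pot1b* (−0.25, SE 0.07) and *Acd* (−0.13, SE 0.05) were lower in DMH as well. *Terf2* (0.10, SE 0.03) and *Terf2ip* (0.29, SE 0.04) were higher. The values of *Terf1*, 0.56 and 0.42, lay above those of every other shelterin gene. *Terf1* was chosen with its genotype difference known and the others by function, so nothing is read from this order. Of the progestin receptor relatives *Paqr5*, *Paqr6*, *Paqr7* and *Paqr9*, *Paqr7* and *Paqr9* passed the filter. Both were higher in DMH than in SP (1.40, SE 0.08, and 1.31, SE 0.07), and 0 were called between genotypes. *Tram1*, 5.62 Mb from *Tfap2b*, had 0.18 (SE 0.07) in SP and 0.14 (SE 0.05) in DMH and *Tram1l1* had 0.04 (SE 0.09) and 0.15 (SE 0.06), 0 of 2 called between genotypes. Between regions *Tram1l1* was called, as higher in DMH (0.85, SE 0.05), and *Tram1* was not (−0.27, SE 0.05). Among *Mcm8*, *Mcm9* and *Mcm10* 0 were called between genotypes and all 3 were lower in DMH than in SP. Among *Adh5*, *Hoga1* and *D2hgdh*, enzymes of alcohols and hydroxyacids related to the reaction of *Adhfe1*, 0 of 3 were called in any of these comparisons.

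The gene most like each of the 9 over the 24 libraries, after the mean of each region was subtracted, was found among 17179 genes by Pearson's r of log2 CPM. These libraries share genotype, sex and depth, and no p is given. *Mcm3* was most like *Uhrf1* (r = 0.986), which maintains DNA methylation in dividing cells. *Snhg6* was most like its neighbour *Mcmdc2* (r = 0.876). *Mcmdc2* was most like *Hjurp* (r = 0.897), 69.1 Mb above *Tfap2b* on the same chromosome. *Vxn* and *Terf1* had the same most alike gene, *Gm21168* on chromosome 5 (r = 0.857 and 0.830). *Adhfe1* was most like *Setd4* (r = 0.862), *Tram2* most like *Igfbp4* (r = 0.908), *Paqr8* most like *Tmem150a* (r = 0.846) and *Tmem14a* most like *Taz* (r = 0.777), all on other chromosomes. Among the 9 themselves, r was 0.822 to 0.876 for the pairs of *Adhfe1*, *Mcmdc2* and *Snhg6* and 0.683 for *Vxn* with *Terf1*, while that of *Terf1* with *Adhfe1* was −0.811.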

How the data were processed

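Stranded polyA libraries (dUTP method) were sequenced as read pairs. The authors aligned them and deposited raw counts per gene for each library. The submitters' processing notes name cutadapt 2.4, STAR 2.6.1d and edgeR, and the builds GRCm38.p6 and mm10. Library depth was 24.7 to 66.8 M fragments on genes, and lines that name no gene were left out. Gene positions came from GENCODE on GRCm38. The counts of the dUTP strand were analysed here with edgeR 4.0.16 in R 4.3.3 (TMM, filterByExpr, robust quasi-likelihood fit, Benjamini-Hochberg adjustment over all genes tested), with sex as a covariate for each region and with the embryo as a block for comparisons across regions. Both regions came from the same embryo, and the correlation of their deviations from the group means was 0.0864 to 0.688. DESeq2 1.42.0 was an alternative. Others were unstranded counts, size factors by RLE, fits without a filter on low counts, an FDR under 0.05, all samples with mut3, the replicate number as a block, each replicate left out in turn and, added after seeing the data, DMH pieces under 100 CPM of caudal *Hox* transcripts left out. Fits were tested on simulated data. No pair of libraries of a group was a copy (lowest chi-square per gene 9.62).

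The 9 genes and all lists were chosen with earlier results of these data known. Named besides them were the 5 tested genes nearest to *Tfap2b* on each side, the gene most alike to each, partners of the encoded proteins and overlapping genes. Some genes that these rules name are not reported here. A rule that named genes called in both regions found none. Figures were drawn with matplotlib 3.10.9 under Python 3.11.15.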

Additional observations from a re-analysis of the deposited data

Results flagged for a closer look

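Within groups of 4 to 10 libraries, a gap between the highest or lowest library and the rest that passed Dixon's critical value was sought in 40 groups, and about 1 in 20 such groups passes by chance. It was found in the mutants for male mutant 2 with *Adhfe1* in SP (0.703 CPM), with *Mcmdc2* in SP (0.417 CPM) and with *Mcmdc2* in DMH (0.249 CPM), each time as the highest mutant. *Terf1* in SP was highest in male mutant 1 (36.4 CPM), and *Paqr8* in SP was highest in female mut3 (52.0 CPM). The genotype effect on *Tfap2b* differed between DMH and SP by −2.81 on the log2 scale (edgeR adjusted p = 2.87e-07). Why these libraries stood apart was not tested.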

How the results depend on the processing

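Counts below are of the 9 genes called, with the number of all genes called by the same fit in brackets. In SP of both sexes the count was 0 (0), and 5 (12) without a filter, 6 (23) with DESeq2 and 0 to 1 with a library left out (*Snhg6* without male mutant 1, *Mcmdc2* without male mutant 2, each 2 of all genes). In DMH of both sexes it was 2 (8), and 0 (2) at an FDR under 0.05, 3 (8) without a filter (*Mcmdc2* added), 1 (5) with unstranded counts (*Snhg6* lost, log2 fold change −0.89), 0 (5) with mut3, 1 (5) with the replicate number as a block (*Snhg6*), 0 (4) without the pieces low in caudal *Hox* transcripts and 0 to 3 with a library left out. It was 0 without male control 1, male control 2, female mutant 1, female mutant 2 or female control 2. It was 1 without male mutant 3 or male control 3 (*Adhfe1*, 4 and 6 of all genes) or male mutant 2 (*Mcmdc2*, 3 of all genes), and 3 (515) without male mutant 1 (*Mcmdc2* added). In female SP it was 0 (3), and 1 (25) without a filter, 1 (8) with DESeq2 and 4 (52) with the replicate block. In female DMH it was 0 (1), and 4 (535) without a filter, 3 (77) with DESeq2, 1 (35) with the replicate block and 0 to 4 with a library left out (the 4 without female control 1, beside 1117 of all genes). In male SP it was 0 (0), and 2 (7) with DESeq2. In male DMH it was 0 (4), and 3 (17) without a filter, 3 (13) with DESeq2 and 0 to 1 with a library left out (*Mcmdc2* without male mutant 2, −4.12, 7 of all genes). For the difference of effects between regions it was 0 (1), and 1 (3) with DESeq2 (*Vxn*). The deviations of same-numbered controls and mutants correlated at −0.19 to 0.59, over 0.1 in 7 of 12 pairs and not in all. No label ties a number to a litter, so a pairing by number was neither given nor shown. The cause of these changes was not tested. Without the pieces low in caudal *Hox* transcripts the DMH values of *Mcm3* (−0.07) and *Paqr8* (0.05) had the other sign. In controls the count between regions was 6 (5823), and 5 to 6 with an embryo left out. Depth limits *Mcmdc2*, with at most 16 counts in any mutant library.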

Other observations

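Of the other tested chromosome 1 genes within 10 Mb of *Tfap2b*, 2 had an absolute log2 fold change over 1 in a region, and both were named after their values were seen. They are transcript models of unknown function that lie 6.60 Mb above *Tfap2b* and next to each other. *Gm37602* was at 0.295 to 0.511 CPM in SP controls (median 0.472) and at 0.0710 to 0.238 CPM in SP mutants (median 0.0948), or −2.03 on the log2 scale (SE 0.32). DESeq2 called it in SP and edgeR did not. Its groups did not overlap in SP, and it did not pass the filter in DMH. The lowest and the median level of its SP mutants equalled the floors of female SP mutants 2 and 1 (0.0710 and 0.0948 CPM). Its fold change and the lack of overlap thus rest on few counts in the mutants. *2900022M07Rik* was at 0.249 to 0.831 CPM in DMH controls (median 0.481) and at 0.0819 to 0.246 CPM in DMH mutants (median 0.0935), or −1.85 on the log2 scale (SE 0.35) in DMH and −0.49 in SP. With mut3 its DMH groups overlapped. The median of its DMH mutants equalled the floor of male DMH mutant 2 (0.0935 CPM), so its DMH fold change rests on few counts as well.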
